A study of Mus musculus with 15 samples.

Results

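The lens of wild-type C57BL/6NTac mouse embryos was compared by RNA-seq between the embryonic days E10.5 and E14.5, with E12.5 as the midpoint that splits early from late changes. The comparison sets the 3 libraries of E14.5 against the 3 of E10.5, which are 6 of the 15 libraries of the series, and takes the 3 libraries of E12.5 as the stage between them. Libraries of E16.5 lenses and of whole embryos entered the filter on low values, the check for listed zeros and the shared estimate of spread. The labels call the libraries of a stage biological replicates, with 50 lenses pooled per library of E10.5, 29 per library of E12.5 and 18 per library of E14.5, and no genotype or treatment differs between the stages. Lenses were taken whole, so epithelium, fibres and any tissue that came along with the lens are measured together. Of 14615 gene symbols in the table, 14532 were tested, and all of them are counted here.

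At the early stage the lens is a newly closed vesicle of dividing cells derived from the surface ectoderm. Cells at its back then leave the cell cycle and lengthen into primary fibres that fill the vesicle, and cells at the equator go on to lay secondary fibres around them. Fibres make crystallins, the soluble proteins that refract light, couple through gap junctions, build beaded filaments from their own intermediate filament proteins and in the end degrade their nuclei and other organelles. The labels give the day only, so the names vesicle and fibre stage are textbook names for these days.

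Levels are FPKM, a fragment value scaled by transcript length and by library, added up over each gene's transcripts, and the read depth behind them is unknown. Differences are in log2(FPKM + 1) with the standard error of the fit, which understates the change of genes with low values. Levels with a ± are the mean and SD of 3 libraries, and 3 levels in a row are replicates 1, 2 and 3 of a stage, with the stages in the order E10.5, E12.5 and E14.5. A gene rose or fell where its Benjamini-Hochberg adjusted p, over all genes tested with limma, was under 0.05, and p-values are of that kind throughout. A gene that changed at least 2-fold was called early where E12.5 lay significantly past the log2 midpoint of E10.5 and E14.5, late where it lay significantly short of it, and undecided otherwise.

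The E10.5 libraries already carried the marks of lens. Pax6, the transcription factor that starts eye development, had 455, 450.2 and 444 FPKM there, and Foxe3, a transcription factor of lens epithelium, had 321, 315 and 269 FPKM. The libraries of a stage were not all alike in what came with the lens. The summed level of 8 genes of fetal liver and yolk sac, among them Afp and Ttr, was 541.8 and 1014 FPKM in E10.5 replicates 1 and 3, against 22.7 FPKM in replicate 2 and at most 25.6 FPKM in any E12.5 or E14.5 library. E10.5 replicate 3 also stood apart in the 12 genes of periocular mesenchyme, with a summed 2858 FPKM against 305.1 and 305.7 FPKM in the other two. At E12.5, replicate 1 had the lowest crystallin share of all FPKM, 7.27% against 11.3% and 12.9%, and the highest mesenchyme sum, 1187 FPKM against 470.2 and 338.9 FPKM.

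Between E10.5 and E14.5, 5279 genes rose (36.3% of those tested) and 5239 fell (36.1%), so a call alone sets a gene apart from little. The counts of each gene list below are to be read beside these shares. At least 2-fold, 2174 genes rose (15%) and 2563 fell (17.6%), and the median log2 change of all genes was -0.016. Changes of at least 8-fold were made by 355 risers and 312 fallers. The E10.5 and E14.5 values did not overlap for 2166 of the 2174 risers and 2532 of the 2563 fallers. The calls were made on these same values, so the lack of overlap is largely fixed by them and adds no support. Of the risers, 400 had a mean under 1 FPKM at E10.5, and of the fallers 931 had one under 1 FPKM at E14.5. The balance of the directions depends on the scale. When crystallins were left out and the libraries were brought to a common total, the all-gene median shifted by -0.319 and risers made up 28.9% of the 2-fold changes in place of 45.9%, so small shifts shared by many genes are read below against that alternative.

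By E12.5 the 2-fold risers had made a median 62.7% of their log2 change (quartiles 47.8% and 77.2%) and the fallers 51.9% (33.4% and 67.2%), though this difference was not tested. Among risers, 735 were early (33.8% of them), 166 late (7.64%) and 1273 undecided. Among fallers, 325 were early (12.7%), 283 late (11%) and 1955 undecided. As the classes are defined by it, early risers had made more of their log2 change by E12.5 than late risers, a median 81.5% against 18.2%. The median size of the whole change was alike, 2.06 and 2.11. The faller counts lean on the E12.5 libraries: without E12.5 replicate 1, 492 fallers were early and 160 late, and without replicate 3, 179 were early and 423 late. On the FPKM scale itself, 958 of the 2174 risers and 1890 of the 2563 fallers were past the midpoint at E12.5, since an even pace in log2 puts most of a rise, but little of a fall, into the later interval when counted in FPKM. For a rise the log2 midpoint lies below the FPKM midpoint, so the 166 late risers, all short of both, could hardly have been otherwise. Of the 735 early risers 159 were short of the FPKM midpoint.

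**Figure D1:**
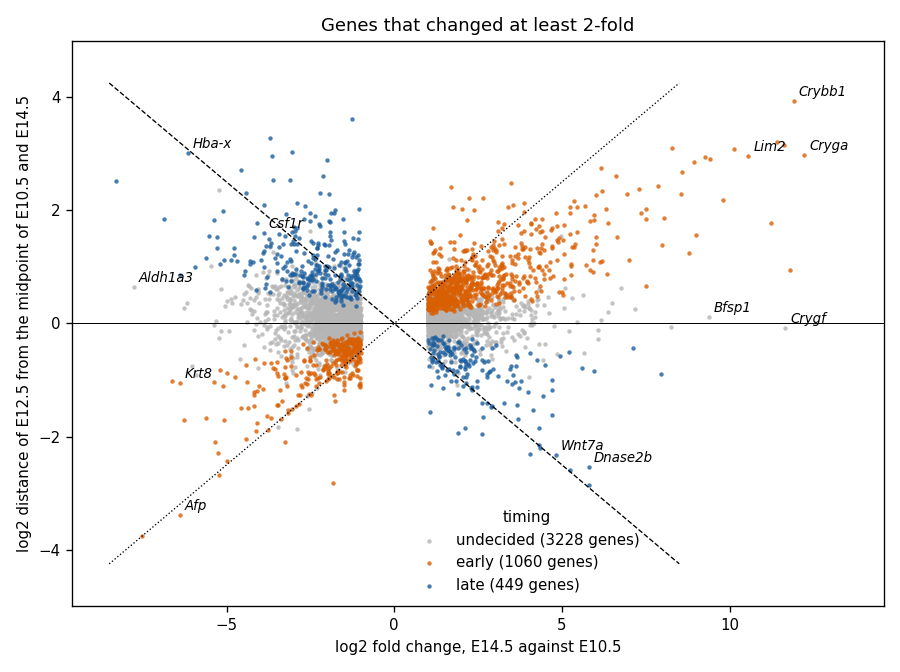
Each point is a gene that changed at least 2-fold; the x axis is the log2 fold change of E14.5 against E10.5 and the y axis how far, in log2, E12.5 lay above or below the midpoint of both, so that on the dotted line the change was complete at E12.5 and on the dashed line it had not begun. Crystallins and Lim2 lie at the upper right among the early risers (orange), Wnt7a and Dnase2b on the dashed line among the late risers (blue), Afp on the dotted line, and Bfsp1 and Crygf near 0.

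Crystallin transcripts made the widest climb. All 14 tested crystallins rose at least 2-fold, and 12 of them were early. The list's median log2 change was 10.53 end to end, and its medians within the 2 intervals, taken separately, were 6.97 and 2.57. Cryga had the highest log2 change of all genes that could be named by size, 12.23 ± 0.26 (adjusted p = 3.05e-14). Its level was 7.69, 9.70 and 11.2 FPKM at E10.5, 3279, 6139 and 9006 FPKM at E12.5 and 42045, 56983 and 52595 FPKM at E14.5. Every E12.5 value lay between the 2 other stages, with no overlap. Crybb1, a beta crystallin, had 5.96, 6.81 and 7.86 FPKM at E10.5, 4922, 8672 and 9907 FPKM at E12.5 and 25623, 31896 and 34263 FPKM at E14.5. It lay farther past the midpoint at E12.5 than any other riser that could be named, by 3.94 ± 0.18 in log2 (adjusted p = 6.78e-09), with 83.1% of its log2 change made but 25.6% of its FPKM.

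The gamma crystallins are nearly identical copies, so their separate levels are uncertain. Cryge had made 72.3% of its log2 change by E12.5, with 38.0, 36.2 and 34.9 FPKM at E10.5, 3325, 5377 and 7341 FPKM at E12.5 and 30552, 35432 and 34501 FPKM at E14.5. Crygf, from the same chromosome, had made 49.3% and stayed undecided, with 1.6, 2.13 and 2.07, then 85.9, 169 and 261, then 8471, 10334 and 9766 FPKM. Its 2 steps, 5.75 ± 0.27 and 5.92 ± 0.27, were of like size. Crybb2, a beta crystallin of the later lens, was the other crystallin left undecided and the one that rose least, to 10.7, 11.97 and 12.6 FPKM from 1.73, 1.45 and 1.17 FPKM (log2 change 2.38 ± 0.25, adjusted p = 5.59e-07). Cryab, a small heat shock protein, had 105, 81.3 and 83.7 FPKM at E10.5 and reached 2674, 3019 and 3121 FPKM.

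Cryaa and Cryba1 were left out of the tests because they are listed at 0 in some libraries beside very high replicates, which for Cryba1 are E16.5 libraries only. Cryaa, the other alpha crystallin, had 103.94, 63.69 and 71.68 FPKM at E10.5 and 25806, 41766 and 49433 FPKM at E12.5. At E14.5 it is listed at 111417 FPKM in replicate 1 and at 0 in replicates 2 and 3. Cryba1 went from 23.95, 20.01 and 22.45 FPKM through 12420, 18859 and 22828 FPKM to 83497, 81759 and 78722 FPKM. Counting these values as listed, crystallins made up 0.0463% to 0.067% of all FPKM at E10.5, 7.27% to 12.86% at E12.5 and 25.2% to 30.1% at E14.5.

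Promoter sequences of 3 early beta crystallins, chosen as examples, are shown because Maf proteins bind a core of TGCTGA. Crybb1 and Cryba4 were among the 10 highest changes, and Crybb3 was not. All 3 hold a match, which not every crystallin window does. Transcripts of Maf and Mafg rose as well, but no protein was measured, and a role of Maf here was not tested. Each is the 150 bases before the RefSeq transcript start on build GRCm38.p6, 5′ to 3′ on the gene's strand, with TGCTGA (or TCAGCA on the other strand) and TATAAA in capitals. They lie at chr5:112255670-112255819 on the plus strand (Crybb1), chr5:112252519-112252668 on the minus strand (Cryba4) and chr5:113081585-113081734 on the minus strand (Crybb3). Crybb1 and Cryba4 are neighbours transcribed away from each other.
Crybb1: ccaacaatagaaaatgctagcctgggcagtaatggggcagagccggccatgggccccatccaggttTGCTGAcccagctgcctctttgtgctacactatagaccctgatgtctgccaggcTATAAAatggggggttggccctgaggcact
Cryba4: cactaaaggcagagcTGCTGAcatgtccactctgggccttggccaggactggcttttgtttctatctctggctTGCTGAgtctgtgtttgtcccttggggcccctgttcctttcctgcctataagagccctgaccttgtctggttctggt
Crybb3: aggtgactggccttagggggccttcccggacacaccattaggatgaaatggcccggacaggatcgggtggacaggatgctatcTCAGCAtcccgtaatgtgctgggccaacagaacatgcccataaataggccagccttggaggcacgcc
The match begins at -84 in Crybb1, with TATAAA at -30, at -135 and -77 in Cryba4 and at -67 in Crybb3, counted from the start. Searched on both strands in RefSeq windows of 300 bases around the start, TGCTGA was in 8 of 13 crystallin windows (61.5%), against 15.4% of 13261 windows of tested genes, 19.3% of the windows of early risers and 20.5% of those of late risers. TATAAA was in 23.1% of crystallin windows and 7.24% of all. These are matches of letters, described with no test, and none was shown to be bound. Windows of gene copies such as the gamma crystallins were each counted, so the crystallin windows may not be independent of each other.

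Genes of the fibre membrane and cytoskeleton rose nearly as a group: 21 of 24 rose, all of them at least 2-fold, with a median log2 change of 4.65. Of these, 15 were early and 2 late. Lim2, a fibre membrane protein, went from 2.06, 1.56 and 1.52 FPKM through 597, 815 and 1123 FPKM to 4165, 4269 and 3799 FPKM (log2 change 10.56 ± 0.16, adjusted p = 3.77e-15), and the stages did not overlap. Mip, the water channel of fibres, had 7.83 ± 0.29 FPKM at E10.5, 1809 ± 669 FPKM at E12.5 and 6109 ± 972 FPKM at E14.5. Vim, the intermediate filament protein vimentin, was present from the start at 429 ± 27.6 FPKM and rose by 2.28 ± 0.13, of which 85.7% came by E12.5.

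Of the beaded filament pair, Bfsp2 was called early and Bfsp1 was not. Gja3, a connexin of fibre gap junctions, had 11.4, 8.18 and 6.45 FPKM at E10.5, 501, 578 and 796 FPKM at E12.5 and 1458, 1709 and 1327 FPKM at E14.5, and was early, with 82.5% of its log2 change made. Bfsp1, a beaded filament subunit, had 3.16, 3.79 and 3.68 FPKM, then 85.8, 133 and 178 FPKM, then 2622, 3396 and 3151 FPKM. Its E12.5 value was 0.12 ± 0.17 from the midpoint (adjusted p = 0.677), and it had made 4.2% of its FPKM change. Its partner Bfsp2 was early, 1.24 ± 0.17 past the midpoint, with 11.3% of the FPKM change made.

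Both late members were nearly silent at E12.5. Lctl, a member of the klotho family, is listed at 0 in every E10.5 library, had 0.16, 0.18 and 0.44 FPKM at E12.5 and 18.9, 22.6 and 16.46 FPKM at E14.5. Birc7, an inhibitor of apoptosis protein, had 0.05, 0.28 and 0.22, then 1.24, 1.53 and 1.08, then 26.2, 24.5 and 23.6 FPKM. Hspb1, a small heat shock protein, and Dlg1, a scaffold protein of cell junctions, were the 2 that fell, by 1.66 and 0.25 in log2.

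**Figure D2:**
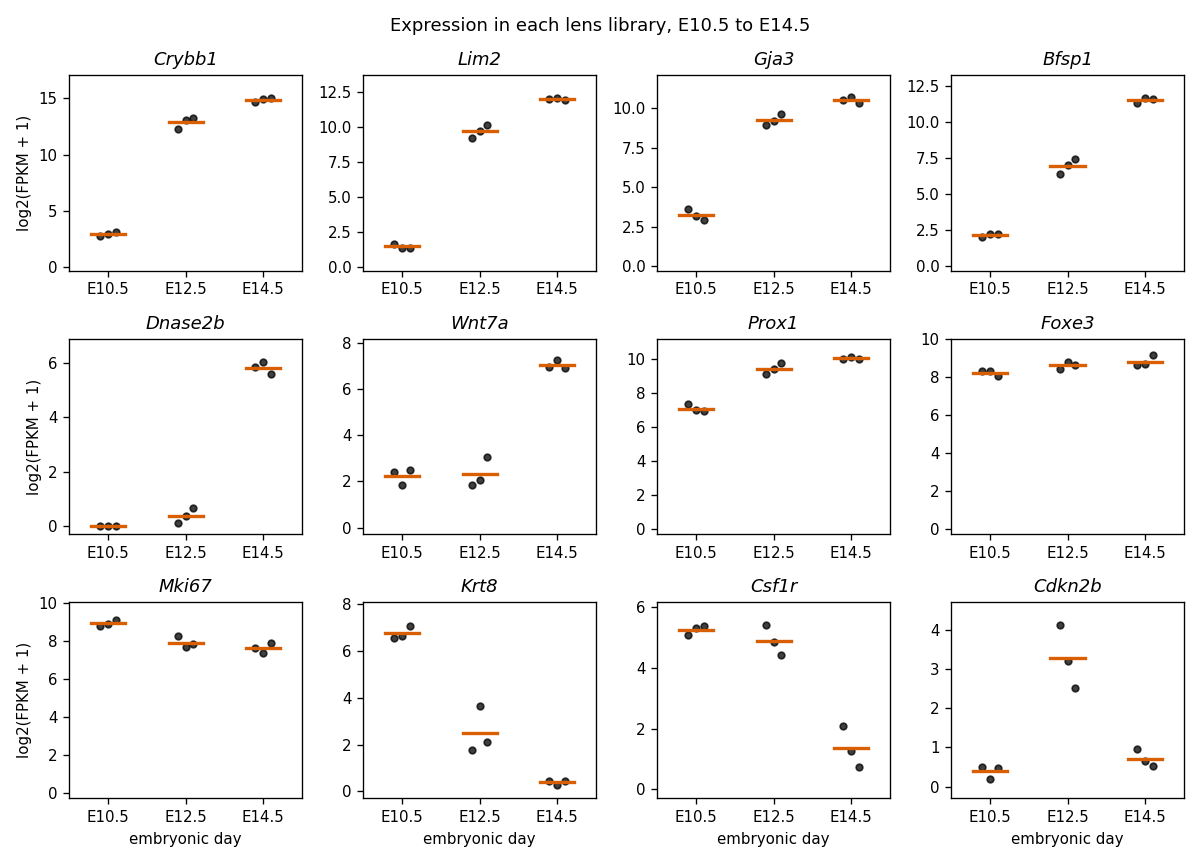
Each panel shows 1 gene, with log2(FPKM + 1) on the y axis, the 3 stages on the x axis, a point for each library and a bar for the mean of 3. Crybb1, Lim2 and Gja3 made most of their log2 climb by E12.5, Bfsp1 about as much in each interval, and Dnase2b and Wnt7a stayed near their E10.5 level until after E12.5; Krt8 fell mostly by E12.5, Csf1r after it, and Cdkn2b was high at E12.5 only.

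Genes tied to organelle breakdown were mixed in time. Of 24, 19 rose, 10 of them at least 2-fold, and 3 fell, with a median log2 change of 0.9, which came to 0.51 with crystallins left out and a common total. Hsf4, a heat shock transcription factor of fibres, was early, with 0.18, 0.12 and 0.22 FPKM at E10.5, 43.3, 83.1 and 86.5 FPKM at E12.5 and 287, 316 and 319 FPKM at E14.5. Capn3, a calcium-dependent protease, was early too and reached 8785, 10649 and 9388 FPKM from 22.4, 16.1 and 17.4 FPKM. Dnase2b, the nuclease that degrades fibre cell DNA, is listed at 0 in every E10.5 library, had 0.08, 0.29 and 0.58 FPKM at E12.5 and 55.9, 63.7 and 47.2 FPKM at E14.5. It lay -2.53 ± 0.15 from the midpoint (adjusted p = 5.02e-08). Optn, an autophagy receptor, was the other late riser, with 7.11, 4.73 and 6.45, then 9.09, 10.49 and 12.1, then 84.1, 103 and 90.7 FPKM. Bnip3l, a mitophagy receptor, rose by 1.98 ± 0.12 at an even pace (53.0% by E12.5), while Dnase2a, a lysosomal nuclease, fell by 2.06 in log2.

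Outside these lists, the late risers that lay farthest from the midpoint were absent or low through E12.5. Nlrc5, a regulator of MHC class I genes, had 0, 0 and 0.10 FPKM at E10.5, 0.19, 0 and 0 FPKM at E12.5 and 40.4, 43.5 and 31.9 FPKM at E14.5 (chr8:94434356-94527272, plus strand). Wnt7a, a secreted Wnt ligand, had 4.30, 2.55 and 4.60, then 2.57, 3.18 and 7.24, then 124, 151 and 120.5 FPKM (chr6:91363981-91411363, minus strand), and its E10.5 and E12.5 values overlapped. RP23-114F4.1, a gene model without a further name, had 0.07 ± 0.01 FPKM at E12.5 and 57.2 ± 7.56 FPKM at E14.5. Among the earliest risers, Chrng, a subunit of the fetal muscle acetylcholine receptor, went from 0.46, 0.42 and 0.50 FPKM to 158, 233 and 282 FPKM by E12.5 and 412, 511 and 428 FPKM at E14.5 (log2 change 8.27 ± 0.16, chr1:87204657-87212694, plus strand). Gm26847, a long noncoding RNA gene at chr10:128230590-128232790 on the minus strand, rose by 10.13 ± 0.19 to 7840.2 ± 638 FPKM. It overlaps Mip on the opposite strand (chr10:128225838-128231812), a gene with like values in each library, and since the sources used here do not say whether counting used strand, the pair cannot be told apart.

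Transcription factors of the lens went both ways. Of 31, 16 rose and 10 fell, with 9 and 7 at least 2-fold, and the median log2 change of 0.39 came to 0.00 with crystallins left out and a common total. The 7 early risers were Hsf4, Sox1, Prox1, Maf, Mafg, Pitx3 and Zeb2, of which Mafg and Pitx3 lost that call without E12.5 replicate 2 or 3. Prox1, a homeobox factor needed for fibre elongation, had 159, 125 and 121 FPKM at E10.5, 553, 663 and 859 FPKM at E12.5 and 1019, 1097 and 1033 FPKM at E14.5. Maf, a bZIP factor that acts on crystallin genes, rose by 2.65 ± 0.14 (73.2% by E12.5) and Sox1, an HMG box factor, by 3.9 ± 0.16 (84.7%). Against these, Sox2, an HMG box factor of the lens placode and also a marker of retina, fell by 2.78 from 91.3 ± 6.13 FPKM, of which 88.9% came by E12.5.

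Genes of the lens epithelium were split too. Of 14 tested, 7 rose and 6 fell, beside 36.3% and 36.1% of all genes tested, with 2 and 4 at least 2-fold. The strongest falls were those of Car14, from 85.2 ± 19.5 to 15.8 ± 2.70 FPKM, and Gja1, from 288 ± 19.1 to 59.9 ± 3.96 FPKM. The factors Foxe3, Pax6 and Six3 changed by less than 2-fold. Foxe3 rose by 0.59 ± 0.13 to 399, 409 and 570.0 FPKM (adjusted p = 0.000977), a call that was lost with crystallins left out (0.2, adjusted p = 0.236) and with quantile normalization (0.1, adjusted p = 0.497). Pax6 fell by 0.49 to 324, 304 and 332 FPKM. Six3, a homeobox factor of the eye field, had 131 ± 7.30 FPKM at E10.5 and 120.2 ± 3.88 FPKM at E14.5 and was not called (adjusted p = 0.232). Tfap2a, an AP-2 factor of surface ectoderm, had 84.3, 70.2 and 74.9 FPKM at E10.5, 21.6, 28.1 and 26.0 FPKM at E12.5 and 32.9, 35.4 and 43.1 FPKM at E14.5. Its lowest values were those of E12.5. Lhx2 and Otx2, homeobox factors that are also markers of retina, had means of 0.31 ± 0.29 and 0.03 ± 0.052 FPKM left at E14.5, from 58.1 ± 18.5 and 43.5 ± 13.7 FPKM.

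RNA-binding proteins known from the lens went both ways, 9 of 19 up and 9 down, 6 each at least 2-fold. Caprin2 and Tdrd7, a pair of RNA granule proteins, rose by 6.34 ± 0.18 and 5.93 ± 0.18. Rbm24, a stabiliser of mRNAs, had 34.8, 24.4 and 22.3 FPKM at E10.5, 308, 390.1 and 465 FPKM at E12.5 and 433, 524 and 444 FPKM at E14.5, so that 93.1% of its log2 change came by E12.5. Celf1, a regulator of splicing and translation, was early as well (1.89 ± 0.13). Lin28a, which blocks let-7 maturation in immature cells, fell early, from 125, 129.9 and 146 FPKM to 16.1, 14.4 and 10.3 FPKM and 6.02, 4.12 and 6.45 FPKM. Rbpms fell by 4.51 without a decided time.

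Cell cycle genes fell together. All 40 mitosis genes fell, 37 at least 2-fold, with a median log2 change of -1.61, and 37 of 38 DNA replication genes fell, 30 at least 2-fold, with a median of -1.39. Of the mitosis genes 15 were early fallers and none late, a count of early fallers that ran from 2 (without E12.5 replicate 2 or 3) to 29 (without E12.5 replicate 1). Of the replication genes none was late and Mcm10 was called early, a call lost without any one of E10.5 replicates 2 and 3, E12.5 replicates 2 and 3 and E14.5 replicates 1 and 3. Mki67, the proliferation marker Ki-67, had 446, 476 and 553 FPKM at E10.5, 304, 200.02 and 226 FPKM at E12.5 and 199.6, 162 and 235 FPKM at E14.5 (log2 change -1.31 ± 0.16, adjusted p = 2.51e-06). Its E12.5 and E14.5 values overlapped. Cdk1, the kinase that starts mitosis, had 179, 209.8 and 185, then 98.3, 86.7 and 74.8, then 69.2, 52.5 and 76.9 FPKM. Orc1, of the origin recognition complex, fell most of the replication list, from 16.1, 18.8 and 16.9 FPKM to 1.91, 2.53 and 2.43 FPKM. Pold2, a subunit of DNA polymerase delta, was the member not called, at 47.3 ± 3.92 and 47.0 ± 2.55 FPKM. In pooled lenses, fewer cells of a type and less RNA per cell cannot be told apart, here and in every result below.

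The promoters of Cdk1 and Cdc20, of the mitosis list, and Prim1, of the replication list, are shown because both lists fell together while their promoters held different letters. Each is again the 150 bases before the start, at chr10:69352913-69353062 (minus strand), chr4:118437344-118437493 (minus strand) and chr10:128015065-128015214 (plus strand). Capitals mark CCAAT, the NF-Y box, TTTGAA, the core of the cell cycle homology region, and TTCCCGC, an E2F type site, each on either strand. In Prim1 the E2F type match and the CCAAT run together.
Cdk1: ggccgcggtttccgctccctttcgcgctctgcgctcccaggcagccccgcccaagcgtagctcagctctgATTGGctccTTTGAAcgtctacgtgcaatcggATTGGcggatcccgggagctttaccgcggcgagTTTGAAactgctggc
Cdc20: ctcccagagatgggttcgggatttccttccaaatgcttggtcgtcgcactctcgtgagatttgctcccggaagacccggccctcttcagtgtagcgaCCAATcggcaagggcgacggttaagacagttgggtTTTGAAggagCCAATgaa
Prim1: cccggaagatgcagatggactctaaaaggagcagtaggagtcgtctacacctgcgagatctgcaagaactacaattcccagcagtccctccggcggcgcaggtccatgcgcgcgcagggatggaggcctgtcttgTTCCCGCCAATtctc
In Cdk1 TTTGAA begins at -71 and -15, each near an inverted CCAAT at -80 or -48. TTTGAA was in 67.6% of 34 windows of mitosis genes, in 13.9% of 36 windows of replication genes and in 11.7% of all. TTCCCGC was in 0 of the mitosis windows, 12 of the replication windows (33.3%) and 8.1% of all, and CCAAT in 67.6%, 58.3% and 37.7%. These shares are descriptions without a test.

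Regulators of the cycle rose in part. The list of 18 holds CDK inhibitors, D cyclins and pocket proteins, with E2f4, E2f5, Btg1, Btg2 and Gas1. In it 11 rose, 3 fell and 4 were not called, with a median log2 change of 0.66. The all-gene median shifted by -0.319 with crystallins left out and a common total, so the size of this median depends in part on the scale. Cdkn1c, the p57 inhibitor of fibre cells, was early, with 134, 133 and 149 FPKM at E10.5, 698, 919 and 935 FPKM at E12.5 and 919.8, 1092 and 1236 FPKM at E14.5. Cdkn1b, which encodes p27, rose by 0.66 ± 0.06, with its E12.5 value significantly past the midpoint (adjusted p = 0.000934). Ccnd1, cyclin D1, was not called, at 299 ± 23.0 and 274 ± 19.6 FPKM (adjusted p = 0.146). The other 3 members that were not called peaked at E12.5. Cdkn1a had 2.43, 1.99 and 2.30 FPKM at E10.5, 10.2, 10.6 and 7.89 FPKM at E12.5 and 2.29, 1.48 and 1.74 FPKM at E14.5. Cdkn2b had 0.41, 0.14 and 0.39, then 16.4, 8.24 and 4.77, then 0.96, 0.56 and 0.44 FPKM, and Cdkn2a 0.14, 0 and 0.39, then 6.66, 5.07 and 2.55, then 0, 0.28 and 0 FPKM. The highest E12.5 values of Cdkn2a and Cdkn2b were in replicate 1, the library with the highest mesenchyme sum, and without it both were still peaks, with steps of 1.99 and -2.1 for Cdkn2a and of 2.48 and -2.16 for Cdkn2b.

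**Figure D3:**
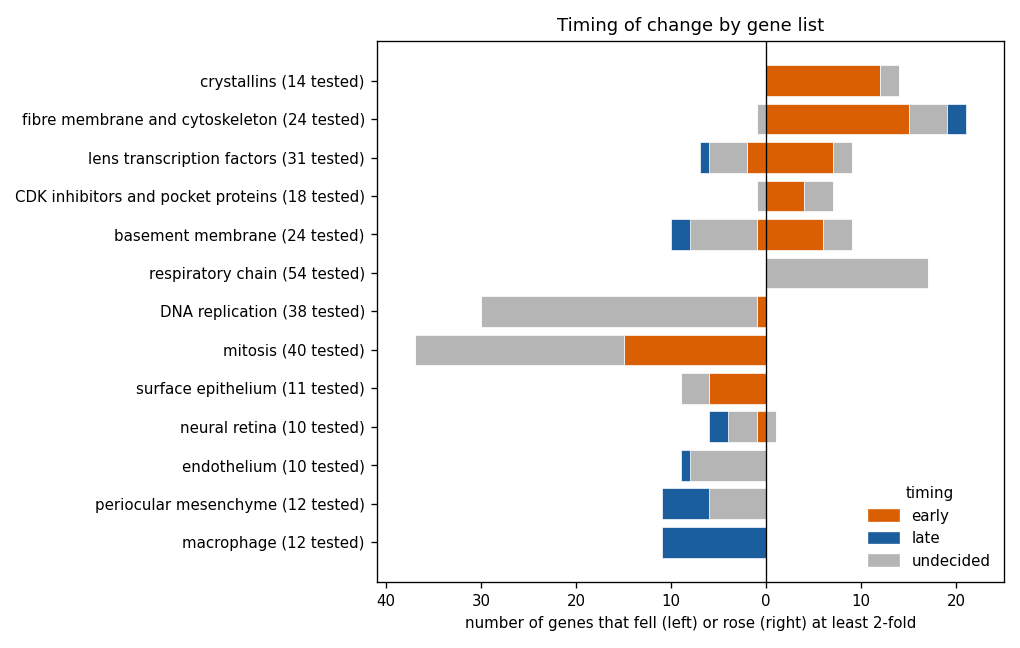
Bars count the genes of each list that fell (left) or rose (right) at least 2-fold between E10.5 and E14.5, coloured by timing. Early risers fill most of the crystallin and fibre bars, undecided genes the DNA replication and respiratory chain bars, early fallers part of the mitosis and surface epithelium bars, and late fallers all 11 of the macrophage bar.

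In FGF signalling, which drives fibre differentiation, 11 of 26 genes rose and 11 fell, with a median log2 change of 0.02. The shares over all genes tested, 36.3% up and 36.1% down, stand beside this count and those of the next pathways. Among the receptors, Fgfr3 rose from 3.11, 6.12 and 6.93 FPKM through 90.1, 115 and 156 FPKM to 365, 421 and 335 FPKM (log2 change 5.92 ± 0.21, adjusted p = 6.33e-12). Fgfrl1, a receptor without a kinase domain, rose by 3.49 ± 0.12, and Fgfr1 was not called, at 148 ± 9.33 and 157 ± 12.8 FPKM. Targets and inhibitors of the pathway parted. Spry1, an inhibitor, rose by 2.14 ± 0.11 (86.3% by E12.5), whereas Dusp6, a phosphatase of ERK, fell from 118 ± 11.7 to 27.7 ± 3.73 FPKM and Etv4, an ETS factor, from 20.6 ± 2.39 to 4.38 ± 1.10 FPKM.

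In the BMP and TGF-beta pathways 25 of 33 genes fell and 6 rose, with a median of -0.55. The ligand Bmp4 fell by 4.07, with 12.3, 16.3 and 25.5 FPKM at E10.5, 3.98, 3.82 and 1.30 FPKM at E12.5 and 0, 0.09 and 0.17 FPKM at E14.5. The ligand Tgfb2 rose by 2.41 ± 0.12, with 99.3% of the change made by E12.5, and Tgfb1 fell from 13.3 ± 4.09 FPKM at E12.5 to 2.44 ± 1.72 FPKM. Of the Id genes, targets of BMP signals, Id3 fell by 2.05 and Id2 rose by 1.59 ± 0.13.

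In Notch signalling, 13 of 24 fell and 7 rose. Jag1, the ligand of the fibre zone, and Lfng, a glycosyltransferase that tunes Notch, were early risers (1.63 ± 0.1 and 3.03 ± 0.11), while the ligand Dll4, also a gene of endothelium, fell by 2.90 and the target Hes1 by 1.46. In Wnt signalling, 18 of 33 fell and 9 rose. The secreted antagonist Sfrp1 rose early, from 130, 141 and 148 FPKM to 1988, 2423 and 1899.5 FPKM, and its relative Sfrp2 fell from 962, 1038 and 1057 FPKM to 124, 129 and 162 FPKM. Both had closed most of the distance by E12.5 (80.1% and 60.4%), though Sfrp2 stayed undecided. The ligand Wnt7b rose at an even pace (55.3% by E12.5), from 11.4 ± 1.77 FPKM to 411 ± 54.3 FPKM, unlike the late Wnt7a above. Wnt2b, a ligand of surface ectoderm and pigment epithelium, fell by 4.01, although its 23.5, 3.41 and 5.06 FPKM at E12.5 were led by replicate 1. Undecided with all libraries (0.03 ± 0.39 from the midpoint), Wnt2b was early without that library (-0.72 ± 0.22, adjusted p = 0.0367).

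Basement membrane genes also went both ways. Of 24, 12 rose and 10 fell, and the list's median of 0.31 came to -0.03 with crystallins left out and a common total. The 6 early risers were the collagen IV genes Col4a1, Col4a2 (not without E12.5 replicate 3, adjusted p = 0.115), Col4a5 and Col4a6, with Nid1 and Sparc, and their log2 changes ran from 2.04 (Sparc) to 3.11 (Col4a6). Col4a6 had 51.3, 48.0 and 56.2 FPKM at E10.5, 247, 278 and 425 FPKM at E12.5 and 443, 553 and 379 FPKM at E14.5. Nid1, the linker nidogen 1, had 256 ± 15.2, then 1104 ± 223, then 2101 ± 244 FPKM. Frem2, of the Fraser complex of epithelial basement membranes, fell early (not called so without E12.5 replicate 2, adjusted p = 0.126), and Col18a1, collagen XVIII, fell by 2.98 without a decided time.

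Of 29 adhesion genes 14 rose and 11 fell, beside 36.3% and 36.1% of all genes tested. Cdh2, N-cadherin, had reached 702, 687 and 945 FPKM at E12.5 from 237, 265 and 280.2 FPKM and was at 727, 862 and 718 FPKM at E14.5, so its rise was complete at E12.5. Cdh1, E-cadherin, went down and partly back, with 255, 264 and 292 FPKM, then 103, 111 and 129.7 FPKM, then 180.1, 200.5 and 215 FPKM. Integrin subunits parted too: Itga2 and Itga6 were early risers (3.27 ± 0.14 and 2.31 ± 0.14), and Itga3 was an early faller with its lowest level at E12.5 (39.3 ± 1.58 FPKM against 152 ± 18.99 and 52.9 ± 3.77 FPKM).

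Of 54 respiratory chain genes 53 rose, 17 at least 2-fold and all 17 undecided in time, with a median log2 change of 0.78. With crystallins left out and a common total the median was 0.39, with 37 up and 3 down. Ndufa1, a subunit of complex I, rose most, by 2.78 ± 0.11 to 425 ± 28.5 FPKM. For 19 glycolysis genes the median was -0.59 in the first interval and 0.5 in the next, signs that held in every alternative run, and end to end 5 rose and 7 fell. Ldha, of lactate dehydrogenase, had 849, 1068 and 997 FPKM at E10.5, 334, 318 and 294 FPKM at E12.5 and 468, 416 and 526 FPKM at E14.5, and Pgk1, phosphoglycerate kinase, 370.5, 461 and 425, then 239, 239 and 275, then 431, 463 and 475 FPKM. For both the E12.5 values lay below all others. The other lactate dehydrogenase gene, Ldhb, fell from 124 ± 21.8 to 3.35 ± 0.86 FPKM. Of the glucose transporters, Slc2a1 rose by 0.92 ± 0.09 and Slc2a3 fell by 4.03.

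Small shifts of large complexes turn on the scale. Of 76 cytosolic ribosomal protein genes 51 rose and none fell, none of them 2-fold, with a median of 0.34, but the median was -0.05 with crystallins left out and a common total and -0.26 with quantile normalization. Of 31 proteasome genes 26 rose, with a median of 0.48, which came to 0.09 and 0.11 in those alternatives. Of 21 cholesterol synthesis genes 14 rose and 3 fell, with medians of 0.56, 0.17 and 0.3. Redox genes were split, 14 of 28 up and 9 down, beside 36.3% up and 36.1% down over all genes tested. Gss, glutathione synthetase, rose from 21.2, 16.9 and 21.2 FPKM through 193, 282 and 344 FPKM to 748, 833 and 816 FPKM, and the metallothionein gene Mt2 fell from 47.1, 19.97 and 33.6 FPKM to 0.48, 0.09 and 0.09 FPKM. Slc24a4, a sodium, potassium and calcium exchanger, led the 22 pumps and carriers with 8.0 ± 0.2, and Kif1a, a motor of vesicle transport, rose by 4.11 ± 0.24. Among chromatin genes, 12 of 23 fell and 4 rose, beside 36.1% and 36.3% of all genes tested. The DNA methyltransferase Dnmt3b fell by 3.0 and Ezh2, the H3K27 methyltransferase, by 1.95.

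Markers of surface epithelium fell. Of 11, 10 fell, 9 at least 2-fold, with a median log2 change of -4.36 end to end and, taken separately, of -3.67 to E12.5, and 6 were early (2 with a pseudocount of 0.1). Krt8, a simple epithelial keratin, had 94.8, 98.3 and 134 FPKM at E10.5, 2.41, 11.7 and 3.33 FPKM at E12.5 and 0.36, 0.19 and 0.35 FPKM at E14.5 (log2 change -6.39 ± 0.34, adjusted p = 4.84e-10). Trp63, the p63 factor of stratified epithelia, went from 16.6, 14.7 and 18.97 FPKM to 0.55, 0.06 and 0.22 FPKM and then to 0, 0 and 0.09 FPKM. Esrp1, a splicing factor of epithelia, had 54.9, 53.8 and 51.0, then 0.02, 5.77 and 1.01, then 0.12, 0.09 and 0.09 FPKM. The E12.5 level of Krt8 and Esrp1 was highest in replicate 2, and without it both were still early, -1.63 ± 0.16 and -2.43 ± 0.21 from the midpoint. Krt8 lost the early call without E12.5 replicate 1 (adjusted p = 0.115) or 3 (adjusted p = 0.107), and Esrp1 kept it. Dsp, desmoplakin, fell from 140.1 ± 32.7 FPKM to 2.63 ± 1.02 FPKM by E12.5 and stayed there, at 2.72 ± 0.34 FPKM.

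Markers of cells around the lens fell as well. Of 12 macrophage genes 11 fell, all of them late, with a median log2 change of 0.17 to E12.5 and -2.73 after it. Csf1r, the receptor of macrophages, had 32.5, 38.4 and 40.5 FPKM at E10.5, 41.7, 27.6 and 20.5 FPKM at E12.5 and 3.25, 1.39 and 0.65 FPKM at E14.5. Lyz2, a lysozyme gene, was the member not called. The summed level of the 12 genes was 138.6 to 165.5 FPKM at E10.5, 111.2 to 215.1 at E12.5 and at most 22.6 at E14.5.

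Of 12 genes of periocular mesenchyme 11 fell, 5 of them late, with a median of -3.63, and of -2.83 without E10.5 replicates 1 and 3, which leaves a lone E10.5 library that is assumed to vary like the others. Lum, the proteoglycan lumican, had 14.3, 9.65 and 62.4 FPKM at E10.5, 88.2, 43.6 and 26.8 FPKM at E12.5 and 1.20, 0.93 and 0.26 FPKM at E14.5. Its E10.5 and E12.5 values overlapped. Of 10 endothelial genes 9 fell (median -2.77), and Tek, the angiopoietin receptor, rose by 0.72 ± 0.17, which was not called with crystallins left out (0.35, adjusted p = 0.0631). The 10 genes had a summed level at E14.5 of 75.8 to 162.4 FPKM, highest in replicate 1, against 620.2 to 659.4 FPKM at E10.5. Neural retina genes fell in 6 of 10 cases, while 1 rose and 3 were not called. Among those not called, Atoh7 peaked at E12.5. It is listed at 0 in every E10.5 library and had 4.2, 5.18 and 2.31 FPKM at E12.5 and 0.36, 0.09 and 0.35 FPKM at E14.5.

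Globin genes changed in kind. Hbb-bh1, Hba-x and Hbb-y, globins of primitive red cells, were late fallers, but Hbb-y rose first and was also a peak at E12.5. Hbb-y had 1884, 875 and 811 FPKM at E10.5, 4453, 2691 and 2174 FPKM at E12.5 and 136, 46.4 and 93.4 FPKM at E14.5. Hbb-bh1 had 1229, 611 and 591 FPKM at E10.5, 518, 215 and 134 FPKM at E12.5 and 2.53, 1.21 and 0.87 FPKM at E14.5, the strongest fall of any gene that could be named by size (-8.29 ± 0.39). Hbb-bs, an adult beta globin, rose early, from 9.98, 4.31 and 2.87 FPKM to 215, 149 and 147 FPKM and 388, 196 and 249 FPKM, though Hbb-bs and Hbb-bt are near copies and cannot be separated with confidence. The summed level of the 10 erythroid genes was 2227 to 5102 FPKM at E10.5, 3730 to 8216 FPKM at E12.5 and 452.2 to 972.5 FPKM at E14.5. At each stage it was highest in replicate 1.

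The falls of liver genes rest on E10.5 replicates 1 and 3. Afp, alpha-fetoprotein, had 339.6, 6.91 and 625 FPKM at E10.5, at most 0.35 FPKM at E12.5 and at most 0.46 FPKM at E14.5. Ttr, transthyretin, had 47.7, 2.41 and 83.0 FPKM at E10.5. Of 8 such genes 7 fell, with a median of -2.75, and without replicates 1 and 3 the median was -0.24. The member not called was Alb, albumin, which was near 0 in all 3 E10.5 libraries. It had 0.35, 0 and 0.12 FPKM there, against a mean of 39.1 FPKM in whole embryos, so the list did not move as a whole. The 25 Hox genes tested, which mark trunk tissue, were near 0 in lens, where they summed to 1.9 to 9.6 FPKM at E10.5 and at most 0.1 FPKM at E14.5, against 548.7 to 582.8 FPKM in whole embryos.

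**Figure D4:**
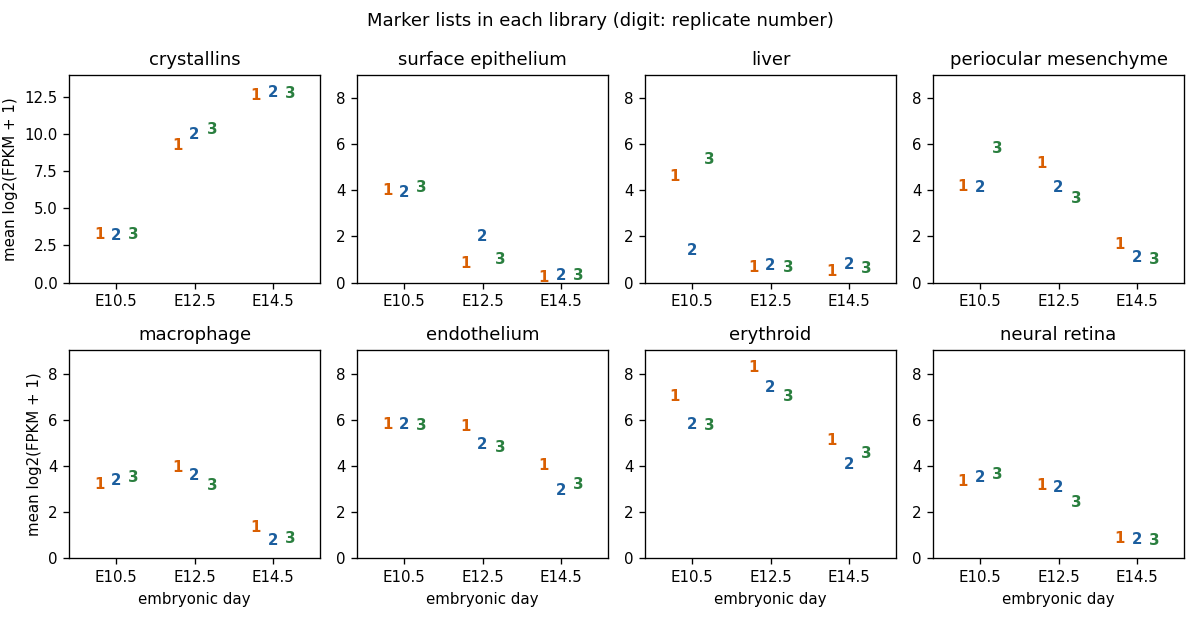
Each panel gives, for 1 list of genes, the mean log2(FPKM + 1) in each library of the 3 stages, with the digit naming the replicate. Crystallins rise and surface epithelium falls by E12.5; macrophage and mesenchyme genes hold until E12.5 and are low at E14.5; liver genes are high in E10.5 replicates 1 and 3 alone, and E12.5 replicate 1 is the highest of its stage for mesenchyme, macrophage, endothelial, erythroid and retina genes.

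Genes outside these lists were among the strongest falls too. Aldh1a3, a retinoic acid synthesising enzyme, had 463, 527 and 618 FPKM at E10.5, 99.7, 41.6 and 41.5 FPKM at E12.5 and 1.82, 1.01 and 1.57 FPKM at E14.5 (log2 change -7.77 ± 0.46, adjusted p = 1.42e-09, chr7:66390890-66427517, minus strand). Crabp1, a retinoic acid binding protein, fell early, from 135 ± 2.16 to 6.17 ± 2.96 to 0.39 ± 0.21 FPKM. Has2, a hyaluronan synthase, had 79.1 ± 0.29 FPKM at E10.5 and 1.95 ± 1.28 FPKM at E12.5 and was early as well. Col2a1, of type II collagen, fell late, with 79.8, 119.5 and 32.7 FPKM at E12.5, and Vcan, the proteoglycan versican, at an undecided time. Crym, a thyroid hormone binding protein, fell from 136 ± 13.8 through 28.4 ± 13.4 to 0.68 ± 0.55 FPKM. The mitochondrial mt-Rnr2 is listed at 217.24, 190.05 and 148.85 FPKM at E10.5 and at 0 in every E12.5 and E14.5 library, while mt-Rnr1, the other mitochondrial ribosomal RNA gene, had at least 1626 FPKM in each of these. A listed 0 can be a failed estimate, so no fall of mt-Rnr2 is read from these values, although it was tested and is part of the all-gene counts above.

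Few genes turned at E12.5: 69 peaked there by at least 2-fold on both sides (0.475% of the genes tested) and 11 dipped (0.0757%). Of the peak genes 34 did not differ detectably between E10.5 and E14.5. Aldh1a2, another retinoic acid synthesising enzyme, had the clearest peak, with 1.14, 0.47 and 0.39 FPKM at E10.5, 42.1, 28.4 and 22.6 FPKM at E12.5 and 2.05, 2.13 and 1.92 FPKM at E14.5 (chr9:71215789-71296243, plus strand). Heyl, a target of Notch in vessel walls, had 1.74, 0.99 and 2.86, then 22.3, 17.1 and 12.4, then 4.57, 2.13 and 3.02 FPKM. Hsd3b6, a steroid dehydrogenase, and the transcription factor Tfap2b peaked too, Tfap2b with 98.9, 40.9 and 31.1 FPKM at E12.5. In all 4 of these the E12.5 values were highest in replicate 1, the library with the lowest crystallin share, and without it all 4 were still peaks. The steps up and down were then 4.01 and -3.12 for Aldh1a2, 2.5 and -1.92 for Heyl, 2.68 and -3.92 for Hsd3b6 and 1.03 and -4.07 for Tfap2b, and the count of peaks was 61. Oc90, an otoconial protein of the ear, is listed at 0, 32.3 and 3.36 FPKM at E12.5 and at 0 in every E10.5 and E14.5 library. Without E12.5 replicate 2 it was no peak (adjusted p = 0.0547 for the step down).

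Of the dips, Dab1, an adaptor of reelin signalling, had 35.7, 43.8 and 40.2 FPKM at E10.5, 16.1, 10.1 and 12.2 FPKM at E12.5 and 37.0, 40.4 and 34.7 FPKM at E14.5. The ends overlapped and all E12.5 values lay below them. Slc16a3, a lactate exporter, had 72.8, 82.2 and 91.8, then 20.2, 15.9 and 16.6, then 38.0, 40.5 and 43.6 FPKM. Cdcp1, a transmembrane protein of epithelia, fell to 0.16, 1.32 and 0.09 FPKM at E12.5 from 18.8, 18.3 and 17.3 FPKM and was back at 5.18, 4.45 and 3.57 FPKM at E14.5. Gm27544, a gene model, dipped to 9.61 ± 2.70 FPKM.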

How the data were processed

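RNA was measured in pooled wild-type mouse lenses. The authors deposited FPKM per assembled transcript, for which the submitters' processing notes name Trimmomatic, Cufflinks, Cuffnorm, TopHat2 2.0.9 and the build mm10. The scaling setting and read depth are not given in the sources used here, so counting error cannot be stated. A gene's value is the sum over its transcripts, without 172 transcripts of class x. Genes needed at least 1 FPKM in 3 of 15 libraries, which removed 80, and Cryaa, Cryba1 and Nufip2 were left out, being listed at 0 beside a replicate of at least 50 FPKM.

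The deposited values were tested as log2(FPKM + 1) with limma 3.58.1 (R 4.3.3), 15 libraries in 1 fit, 1 mean per group, a trended prior, 10 residual degrees of freedom and Benjamini-Hochberg adjustment over 14532 genes. The midpoint contrast is orthogonal to the end-to-end one, with 3 libraries per stage. Named genes were the 10 highest and lowest changes, the 4 farthest from the midpoint in each timing class, the 4 clearest peaks and dips, up to 2 at the top and bottom of every list and a set of lens genes, and further list members were chosen as examples after their values were seen; a few named by this rule are not reported. Members and lists were chosen with earlier results of these data known. Coordinates of genes are from GENCODE vM21, in which 99.1% of 30879 reference transcripts were found, and promoters are from RefSeq on GRCm38.p6. The fit was tested on simulated data. Alternatives were a pseudocount of 0.1, other filters, a 1.5-fold minimum, class x transcripts kept, no trend, other scalings (crystallins left out with a common total, a common median, quantile normalization), sets of libraries in the fit, a replicate block, leaving out each library and, chosen after seeing the data, E10.5 replicates 1 and 3 together.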

Additional observations from a re-analysis of the deposited data

How the results depend on the processing

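Counts of 2-fold risers and fallers held within 1.5 times in the alternatives run, apart from the 1.5-fold minimum, with 3617 risers, 138 peaks and 42 dips. Close to that limit, crystallins left out with a common total gave 1453 risers and 3567 fallers, in place of 2174 and 2563. Other counts moved further: dips came to 24 with a pseudocount of 0.1, and peaks to 43 with a filter of 5 FPKM. Early and late fallers came to 558 and 185 with quantile normalization and to 185 and 157 in a fit of only E10.5, E12.5 and E14.5. Leaving out 1 library at a time, early fallers ran from 179 to 492 and late fallers from 160 to 423. Without E10.5 replicates 1 and 3 together, an alternative chosen after seeing the data, late fallers came to 184, and 1975 of the 2174 risers and 2402 of the 2563 fallers remained. The cause of these moves was not tested. The replicate block gave 2174 risers, 2567 fallers, 724 early and 162 late risers. Early and late fallers were then 317 and 297, with 68 peaks and 11 dips. Same-number deviations correlated with r from -0.0946 to 0.2373, only 1 of 9 over 0.1, that of replicate 1 of E12.5 and E14.5. This is no clear sign that replicate numbers pair the libraries, but it cannot settle the question. Of 184 single genes under 21 alternatives, 154 kept their call, or the lack of one, throughout, and those called kept their direction. A turned sign was counted only for genes called in the main fit. Signs turned for Uqcrb with crystallins left out (-0.2) and quantile normalization (-0.06), for Rpl41 (-0.21) and Rpsa (-0.5) with quantile normalization, and for Trf without E10.5 replicates 1 and 3 (0.29). Low levels limit genes near 1 FPKM, whose changes are understated.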
